A study of Mus musculus with 18 samples.

Results

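The clustered histone genes encode the linker histone H1 and the core histones H2A, H2B, H3 and H4. On these arrays they were taken as every row whose annotated gene symbols all begin with H1f, H2ac, H2bc, H3c or H4c followed by a number. A row is the summary of the probes of 1 transcript cluster, and 47 of 35556 rows met this rule. The cells were C2C12, an immortalised mouse myoblast line that leaves the cell cycle and forms myotubes when serum is lowered. Endogenous TAF3, a TFIID subunit whose PHD finger binds trimethylated H3K4, had been depleted in all of them, and murine TAF3 had been put back. The 6 groups, with 3 biological replicate arrays each, were KK-TAF3 with sh-PIP4K2B, WT-TAF3 with sh-PIP4K2B, and WT-TAF3 with shX, each after etoposide at 10 µM for 7 hours or after differentiation in 2% horse serum. The sample labels give 2 days of differentiation and the series description gives 3. KK-TAF3 is a mutant of the PHD finger altered in its binding of phosphoinositides. PIP4K2B is the nuclear lipid kinase that phosphorylates PI5P, and sh-PIP4K2B depletes it. The labels of the WT-TAF3 cells without PIP4K2B depletion name no control shRNA, and shX was taken from the study's figures. Cells were given either etoposide or differentiation medium, so the drug, the medium and the state of differentiation cannot be told apart in a comparison of etoposide with differentiation.

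Most genes of these clusters are replication dependent. Their mRNAs accumulate in S phase, end in a conserved stem-loop in place of a poly(A) tail, and are bound at that loop by SLBP, while NPAT at the histone locus body drives their transcription. They are degraded quickly when DNA synthesis stops, and cells that leave the cycle lose them. A few of the H1 genes differ. H1f10 is a replication-independent linker histone, H1f6 and H1f7 are linker histones of the male germ line, and H1f8 is that of the oocyte.

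The promoters of the 5 genes that passed the test on PIP4K2B depletion, alone or in its difference between treatments, are shown here, since the comparisons of PIP4K2B depletion turn on them. Sequences run 5′ to 3′ on the strand of the gene, from 250 bases before to 50 after the start in RefSeq, build GRCm38.p6. Capitals mark matches on either strand to TATAAA (the TATA box), CCAAT, ATTTGCAT (the octamer of H2B promoters) and AAACACA (the box of H1 promoters). H2ac4 lies at chr13:23750838-23751137 on the plus strand, H1f1 at chr13:23763418-23763717 on the plus strand, H2ac15 at chr13:21753863-21754162 on the minus strand, H2bc9 at chr13:23543395-23543694 on the minus strand and H3c15 at chr3:96239078-96239377 on the minus strand.
H2ac4: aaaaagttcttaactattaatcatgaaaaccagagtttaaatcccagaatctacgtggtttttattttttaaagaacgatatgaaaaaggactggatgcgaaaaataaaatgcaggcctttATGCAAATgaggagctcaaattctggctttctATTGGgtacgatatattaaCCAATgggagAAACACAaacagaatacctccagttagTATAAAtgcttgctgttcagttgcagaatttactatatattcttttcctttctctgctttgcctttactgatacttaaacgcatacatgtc
H1f1: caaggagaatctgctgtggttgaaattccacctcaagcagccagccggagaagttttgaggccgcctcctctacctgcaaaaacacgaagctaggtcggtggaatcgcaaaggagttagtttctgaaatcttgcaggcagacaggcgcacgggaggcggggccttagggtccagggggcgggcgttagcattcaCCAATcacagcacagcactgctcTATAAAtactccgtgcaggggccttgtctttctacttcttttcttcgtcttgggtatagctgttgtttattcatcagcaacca
H2ac15: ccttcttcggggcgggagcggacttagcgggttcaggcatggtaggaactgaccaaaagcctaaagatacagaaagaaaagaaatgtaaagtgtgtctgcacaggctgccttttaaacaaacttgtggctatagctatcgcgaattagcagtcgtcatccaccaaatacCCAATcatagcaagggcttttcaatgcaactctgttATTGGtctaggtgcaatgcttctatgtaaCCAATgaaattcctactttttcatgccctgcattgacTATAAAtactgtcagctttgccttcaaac
H2bc9: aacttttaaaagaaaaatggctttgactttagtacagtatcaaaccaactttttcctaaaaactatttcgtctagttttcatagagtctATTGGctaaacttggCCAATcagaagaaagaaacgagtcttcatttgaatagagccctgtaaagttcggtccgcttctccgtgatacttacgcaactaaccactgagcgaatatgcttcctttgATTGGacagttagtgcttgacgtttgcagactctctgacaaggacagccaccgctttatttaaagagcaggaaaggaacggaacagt
H3c15: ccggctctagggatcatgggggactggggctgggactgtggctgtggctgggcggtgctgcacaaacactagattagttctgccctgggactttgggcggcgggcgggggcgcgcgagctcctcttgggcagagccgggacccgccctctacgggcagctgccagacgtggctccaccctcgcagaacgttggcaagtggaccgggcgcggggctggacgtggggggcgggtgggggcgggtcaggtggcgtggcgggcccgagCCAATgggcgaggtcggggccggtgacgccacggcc

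H2ac4 held all 4 motifs within 130 bases upstream of its start, with the octamer on the opposite strand at -129 to -122 and the TATA box at -41 to -36. H1f1 held a CCAAT match at -56 and a TATA box at -33. In H2ac15 the TATA box lay at +21, downstream of the annotated start, and 3 CCAAT matches lay above it. H2bc9 held 3 CCAAT matches and none of the other motifs. H3c15 stood apart from the other 4 promoters: its window was 72.7% GC, against 33.3% to 52% in those 4, and its 1 match, to CCAAT, lay at +14. RefSeq promoters were matched for 42 of 47 member symbols, giving 43 windows of 300 bases. TATAAA was found in 24 of these 43 (55.8%, against 13.6% of all 32851 promoters) and CCAAT in 33 (76.7%, against 37.4%). ATTTGCAT was found in 9 (20.9%, against 1.74%), of which 6 were among 9 H2B promoters and 3 among 4 H2A promoters. The H2A matches of H2ac8 and H2ac1 are the same bases as the matches of H2bc8 and H2bc1. H2ac8 and H2bc8 start 180 bases apart on opposite strands. The 9 are thus not all separate sites, and some matches to the other motifs are also counted from both windows of such a pair. AAACACA was found in 9 (20.9%, against 7.18%), 5 of them among 9 H1 promoters. Matches of different motifs never overlapped in these windows. Besides H2ac4, only H2ac1 and H2bc1, the testis H2A and H2B genes, held all 4 motifs. These genes start 281 bases apart on opposite strands, and their windows overlap. Every match of H2bc1 falls on the same bases as a match of H2ac1, so they are not separate cases. A match describes the letters of the window and not a site in use.

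Among the 47 rows, 30 carried 1 symbol and 2 carried a pair, H4c17/H4c11 and H2bc6/H1f4. The other 15 were shared by many near-identical genes: 10 H3 rows all carried 12 symbols and 5 H4 rows all carried 11. The H3 shared rows followed each other across the 18 arrays (r = 0.919 to 0.999) and so did the H4 shared rows (r = 0.985 to 1), and 1 pair of H4 rows had values equal to 4 decimals on every array. The 15 rows are thus not independent readings. Probes of a row with 1 symbol may also bind near-identical copies, since the coding sequences within a class are alike, and the gene names are uncertain to that extent. By class there were 8 H1, 4 H2A, 9 H2B, 13 H3 and 12 H4 rows, and the H2bc6/H1f4 row. Of the 26 single-symbol genes with a RefSeq start, 21 lay on chromosome 13, 2 on chromosome 3, and the replication-independent or germ-line H1f7, H1f10 and H1f8 on chromosomes 15 and 6.

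Levels are log2 RMA signals, on which 1 unit is a 2-fold step, and levels of different rows are not compared as amounts since probes differ in brightness. The H3 shared rows averaged 13.66 to 13.87 over all arrays, at percentiles 99.4 to 99.7 of all rows, and the H4 shared rows 13.40 to 13.44. H4c4 (13.44), H2ac15 (12.45), H2bc14 (11.86) and H1f5 (11.14) were the brightest named rows of the H4, H2A, H2B and H1 classes. These 4, picked for brightness, lay well above the median of all row means, 7.35. The germ-line H1f8 (6.44) and H1f6 (6.40) lay below it and H1f7 (7.95) only a little above. The testis genes H2bc1 (7.91) and H2ac1 (8.98) also lay above it. Rows of other cluster genes also lay below that median, among them H1f3 (6.13), H2ac8 (5.39) and H3c7 (4.37).

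Facts of the whole series bear on these values as follows. Array medians lay between 7.25 and 7.46, and arrays of a group correlated at 0.990 to 0.997. Pip4k2b itself had 9.92, 9.74 and 9.63 in WT-TAF3 sh-PIP4K2B cells after etoposide, against 10.75, 10.71 and 10.48 in WT-TAF3 shX cells. In differentiated cells it had 9.46, 9.64 and 9.55 with sh-PIP4K2B, against 10.69, 10.69 and 10.68 with shX, so that the groups did not overlap in either treatment. Of 17 genes of muscle cell identity 13 lay above the median row, against 2 of 8 for macrophages, 1 of 5 for endothelium, 3 of 5 for fat cells, 2 of 5 for epithelium and 1 of 6 for germ cells. Of 22 measured p53 targets 12 rose with etoposide in KK-TAF3 sh-PIP4K2B cells, 10 in WT-TAF3 sh-PIP4K2B cells and 11 in WT-TAF3 shX cells. Of all rows 3.1%, 3.21% and 3.78% rose in these lines.

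Across all 6 groups, the etoposide-treated WT-TAF3 shX cells stood out as the group with the least histone signal. Their mean was the lowest of the 6 in 40 of 47 rows, against 12.9% of all rows on the arrays. In 25 of the 47 rows each of their 3 arrays lay below each of the other 15, against 0.613% of all rows. All 10 H3 shared rows and most H4 shared rows were among the 25, and these are not independent readings. No other group held that position in more than 1 histone row. The highest mean fell to differentiated WT-TAF3 sh-PIP4K2B cells in 24 rows, where 15% of all rows had theirs, and to differentiated WT-TAF3 shX cells in 13, against 20.3% of all rows. Less histone mRNA per cell and fewer cells that make it cannot be told apart in RNA from whole cultures.

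**Figure D1:**
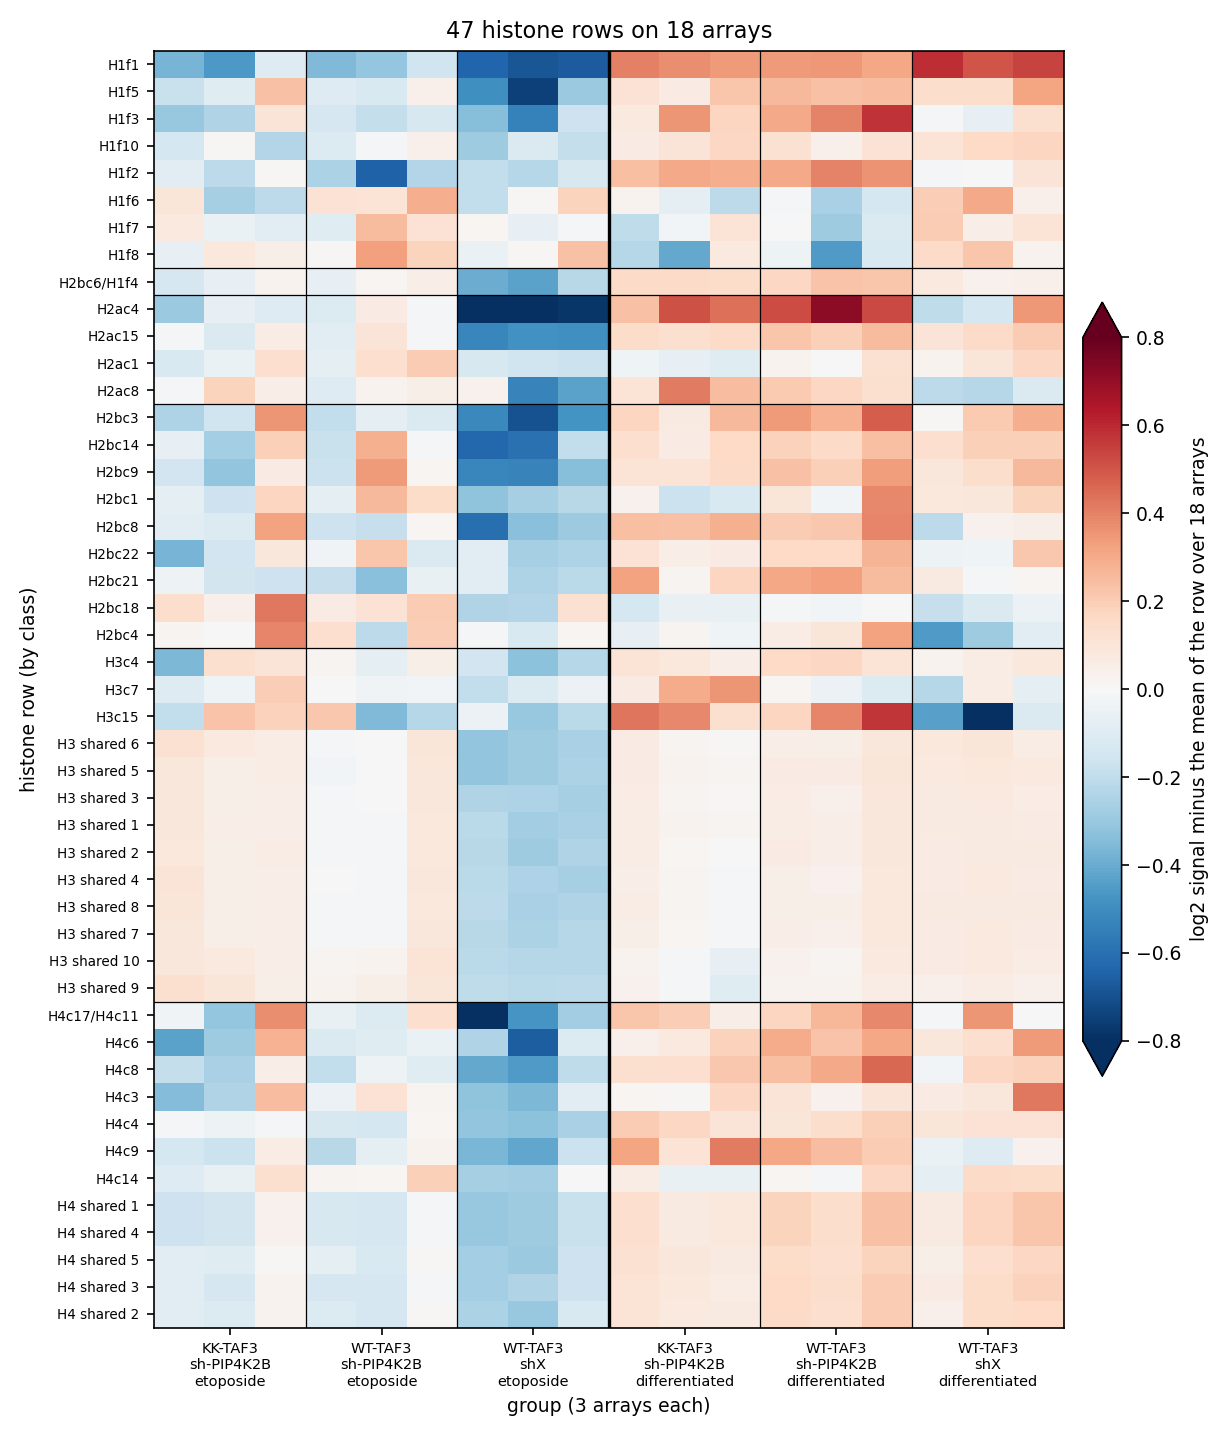
Log2 signal of the 47 histone rows on the 18 arrays, each row minus its own mean over the 18 arrays (blue below, red above, colours end at 0.8 either way). Columns are the 3 arrays of each group, rows are ordered by class, and the 3 columns of etoposide-treated WT-TAF3 shX cells are blue in nearly all classes.

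The first comparison was etoposide against differentiation within each cell line. In WT-TAF3 shX cells 9 of 47 histone rows fell and none rose, 19.1% of the members, where 2.06% of all rows fell and 3.78% rose. The threshold was set in limma at 1.4-fold together with an adjusted p below 0.05, and rows past it are said to have risen or fallen. The 9 rows spanned the linker histones (H1f1, H1f5), H2A (H2ac4, H2ac15), H2B (H2bc3, H2bc14, H2bc9) and H4 (H4c17/H4c11, H4c6). In 45 of 47 rows the difference was negative, with a median of -0.34 over the members and -0.03 over all rows. In 39 rows all 3 etoposide arrays lay below all 3 differentiated arrays, as they did in 17.7% of all rows. Among the 32 rows with 1 or 2 symbols the difference was negative in 30, and in 24 the arrays lay apart in this way.

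H1f1, a linker histone of the chromosome 13 cluster, moved furthest. Its signal was 9.25, 9.20 and 9.22 after etoposide, against 10.48, 10.39 and 10.42 after differentiation. The 2 sets of arrays were each tight and lay far apart, a difference of -1.21 ± 0.08 (SE) or 2.31-fold lower (adjusted p = 5.09e-08). H1f5, another linker histone, had 10.64, 10.39 and 10.84 after etoposide, against 11.28, 11.28 and 11.45 after differentiation (-0.71 ± 0.11, adjusted p = 0.000404). The replication-independent H1f10 differed less than H1f1 and H1f5, by -0.34 ± 0.07, and stayed short of the fold limit although its arrays did not overlap. Its difference was that of the median member (-0.34), where the median of the 8 H1 rows was -0.28. H1f7 (-0.14 ± 0.10) and H1f8 (-0.07 ± 0.13), germ-line linker histones, did not pass the test.

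Among the core histones, H2ac4 had 7.77, 7.80 and 7.84 after etoposide, against 8.41, 8.47 and 8.97 after differentiation. The third differentiated array was the highest of the 6, and the difference of -0.81 ± 0.12 (adjusted p = 0.000253) stayed past the threshold without it (-0.64). H2ac15 had 11.92, 11.96 and 11.96 after etoposide, against 12.55, 12.60 and 12.65 after differentiation, a fall of the same order (-0.65 ± 0.06, adjusted p = 2.26e-06). The other H2A rows were not past the threshold: H2ac1 differed by -0.25 and H2ac8 by -0.13.

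In H2B, H2bc3 had 10.44, 10.26 and 10.48 after etoposide, against 10.97, 11.16 and 11.25 after differentiation (-0.73 ± 0.13, adjusted p = 0.000918). H2bc14 had 11.23, 11.26 and 11.66 after etoposide, against 11.99, 12.05 and 12.05 after differentiation (-0.65 ± 0.13, adjusted p = 0.00286). H2bc9 differed by -0.63 ± 0.12 (adjusted p = 0.00131). The third etoposide array was the highest of its group in H2bc14, H2bc3 and H2bc9, yet below every differentiated array. H2bc4 (0.23 ± 0.13) was the only H2B row with a positive difference. Besides it only H3c15, a replication-dependent H3 gene of chromosome 3, had one (0.26 ± 0.18), and its arrays overlapped.

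In H4, H4c6 had 10.35, 9.93 and 10.49 after etoposide, against 10.69, 10.73 and 10.94 after differentiation (-0.53 ± 0.16, adjusted p = 0.0319). The H4c17/H4c11 row differed by -0.66 ± 0.17 (adjusted p = 0.0132). Both calls were weak: that of H4c6 was lost when differentiated array 1, 2 or 3 or etoposide array 2 was left out (adjusted p up to 0.143), and that of H4c17/H4c11 when differentiated array 2 or etoposide array 1 was left out (adjusted p up to 0.0745). The bright H4c4 row had 13.13, 13.11 and 13.18 after etoposide, against 13.54, 13.56 and 13.56 after differentiation. Its difference of -0.41 ± 0.06 had an adjusted p of 8.49e-05 and missed only the fold limit.

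The median difference of the shared rows was -0.32 in H3 and -0.36 in H4, close to the -0.35 of the 32 rows with 1 or 2 symbols. The H3 row with the highest mean had 13.66, 13.63 and 13.61 after etoposide, against 13.94, 13.95 and 13.94 after differentiation (-0.31 ± 0.05, adjusted p = 0.000354). All 10 H3 shared rows lay between -0.37 and -0.25 and all 5 H4 shared rows between -0.41 and -0.34, with no overlap between the 2 groups of arrays in any of them. None of these 15 rows reached 1.4-fold. Without the fold limit 33 of the 47 rows fell at an adjusted p under 0.05, where 5.09% of all rows fell by that rule.

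Just outside the rule were 7 multi-gene H2B rows of 14 or 15 symbols each, which also carry a symbol that the rule does not take. Since 2 of these rows had equal values in every comparison, the 7 are not all independent readings. The 7 H2B rows differed by -0.59 to -0.51 and were past the threshold. A pair of multi-gene H2A rows differed by -0.32 and -0.30 and were not. Of the single-symbol genes that fell, H2bc14, H2ac15 and H1f5 start within a stretch of chromosome 13 between 21722044 and 21780625, H2bc9 and H4c6 at 23543444 and 23551668, and H2bc3, H2ac4 and H1f1 between 23746734 and 23763668. Genes that were not past the threshold start between or beside them, among them H2bc22 at 21787488 (-0.25) and H1f2 at 23738807 (-0.22).

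The same treatment comparison was made in the cells depleted of PIP4K2B. In KK-TAF3 sh-PIP4K2B cells 2 rows fell, H1f1 (-0.69 ± 0.08) and H2ac4 (-0.55 ± 0.12), or 4.26% of the members, against 3.82% of all rows. Without etoposide array 1 of this group only H1f1 was left. In WT-TAF3 sh-PIP4K2B cells 6 rows fell, 12.8% of the members against 5.16% of all rows: H1f2, H1f1, H2ac4, H1f3, H2bc3 and H2bc21. The call of H2bc3 (-0.49 ± 0.13) was lost without differentiated array 3 or etoposide array 1 (adjusted p up to 0.0511). No member rose in either line, where 3.1% of all rows rose in KK-TAF3 sh-PIP4K2B cells and 3.21% in WT-TAF3 sh-PIP4K2B cells. The median difference was -0.15 in KK-TAF3 sh-PIP4K2B cells, -0.17 in WT-TAF3 sh-PIP4K2B cells and, as above, -0.34 in WT-TAF3 shX cells on the deposited scale. With arrays centred on their medians the same medians lay closer together, at -0.21 in KK-TAF3 sh-PIP4K2B cells, -0.28 in WT-TAF3 sh-PIP4K2B cells and -0.31 in WT-TAF3 shX cells.

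H1f2, H1f3 and H2bc21 are outside the rule for named rows and were picked after their values were seen. In WT-TAF3 sh-PIP4K2B cells H1f2, a widely expressed linker histone, had 10.18, 9.78 and 10.20 after etoposide, against 10.73, 10.82 and 10.79 after differentiation. That is a difference of -0.73 ± 0.09 (adjusted p = 4.7e-05), where WT-TAF3 shX cells gave -0.22. H1f3 (-0.58 ± 0.12) and H2bc21 (-0.49 ± 0.08) followed the same order, with -0.37 and -0.21 in WT-TAF3 shX cells. The H3 shared rows were at 0.03 to 0.11 in KK-TAF3 sh-PIP4K2B cells and at -0.05 to 0.02 in WT-TAF3 sh-PIP4K2B cells, as deposited. The H4 shared rows kept negative differences in every line, at -0.19 to -0.14 in KK-TAF3 sh-PIP4K2B cells and -0.28 to -0.22 in WT-TAF3 sh-PIP4K2B cells. The H3c15 row had -0.50 ± 0.18 in WT-TAF3 sh-PIP4K2B cells with an adjusted p of 0.0573.

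**Figure D2:**
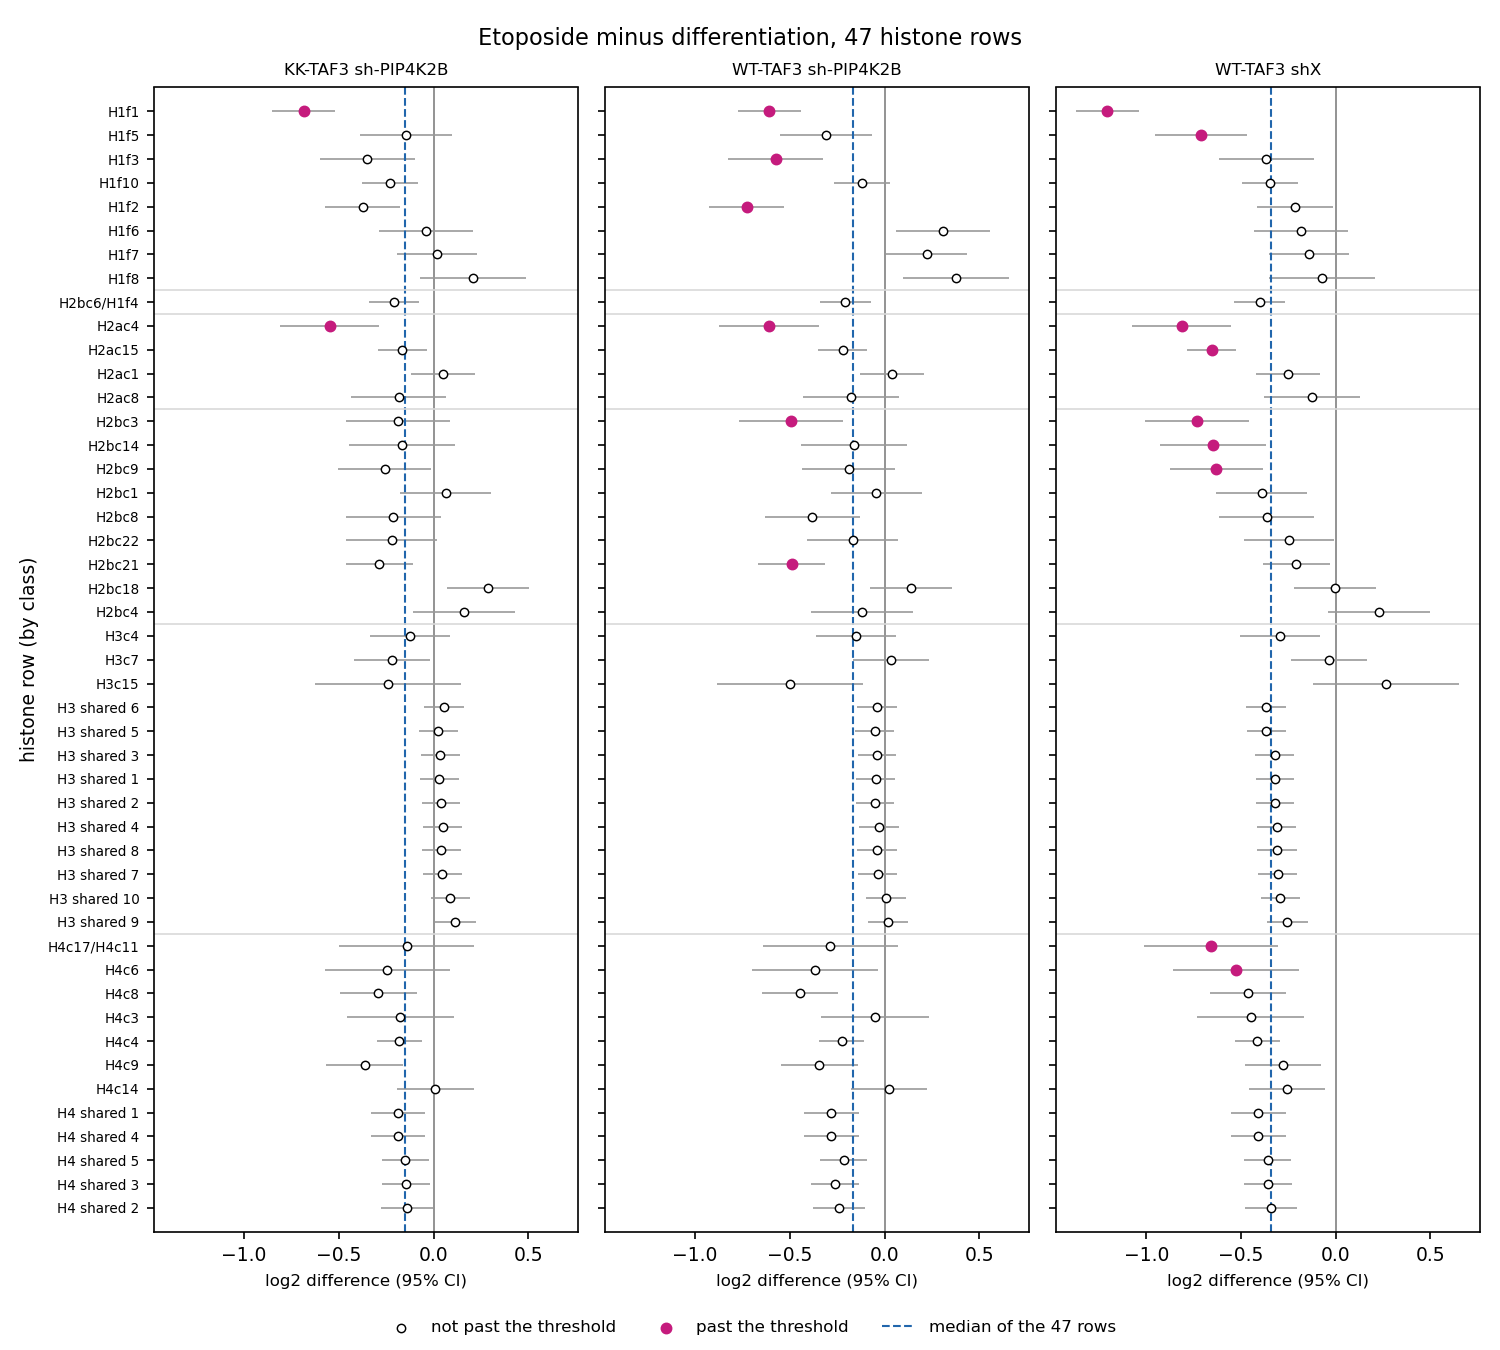
Log2 difference of etoposide minus differentiation for each of the 47 histone rows in the 3 cell lines, with 95% confidence intervals; filled points are past the threshold and the dashed line is the median of the 47 rows. As deposited, the medians are -0.15 in KK-TAF3 sh-PIP4K2B cells, -0.17 in WT-TAF3 sh-PIP4K2B cells and -0.34 in WT-TAF3 shX cells.

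The next comparison was PIP4K2B depletion, WT-TAF3 sh-PIP4K2B against WT-TAF3 shX cells. After etoposide 3 histone rows rose and none fell, 6.38% of the members, where 0.174% of all rows rose and 0.371% fell. They were H2ac4, H2ac15 and H2bc9, core histones that had fallen with etoposide in WT-TAF3 shX cells. The 2 comparisons share the etoposide-treated WT-TAF3 shX arrays, so one is no independent check of the other. The difference was positive in 45 of 47 rows, with a median of 0.26 over the members and 0.01 over all rows. In 33 rows all 3 sh-PIP4K2B arrays lay above all 3 shX arrays, as they did in 5.85% of all rows. Among the 32 rows with 1 or 2 symbols the difference was positive in 30, and in 19 the arrays lay apart in this way.

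H2ac4 had 8.51, 8.68 and 8.60 with sh-PIP4K2B, against 7.77, 7.80 and 7.84 with shX; this was the largest depletion difference among the members after etoposide (0.79 ± 0.12, 1.73-fold, adjusted p = 0.00329). H2ac15 had 12.36, 12.55 and 12.43 with sh-PIP4K2B, against 11.92, 11.96 and 11.96 with shX (0.50 ± 0.06, adjusted p = 0.000421). H2bc9 had 10.93, 11.44 and 11.12 with sh-PIP4K2B, against 10.58, 10.57 and 10.76 with shX (0.53 ± 0.12, adjusted p = 0.0307). The second sh-PIP4K2B array was the highest in all 3 rows, and without it only H2ac4 was past the threshold. Without shX array 3 the count was 5, and the share of all rows in that fit is not given here. The call of H2bc9 was also lost without shX array 1 or 2 or sh-PIP4K2B array 3 (adjusted p up to 0.135).

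Further rows came close. H2bc14 differed by 0.51 ± 0.13 (adjusted p = 0.082) and H1f5 by 0.45 ± 0.11 (adjusted p = 0.0715). H1f1 had 9.53, 9.57 and 9.72 with sh-PIP4K2B, against 9.25, 9.20 and 9.22 with shX, and its difference of 0.39 ± 0.08 passed the adjusted p (0.0189) but not the fold limit. The 10 H3 shared rows lay between 0.26 and 0.31 with no overlap between groups, and the 5 H4 shared rows between 0.13 and 0.18. The 7 multi-gene H2B rows outside the rule, which are not all independent readings, lay between 0.36 and 0.44. Each had an adjusted p under 0.05 and was short of 1.4-fold. Only H1f2 (-0.19) and H2bc21 (-0.01) had negative differences. The threshold decided the number of calls: 15 rows rose with no fold limit, where 0.548% of all rows did, and 5 rose at an unadjusted p with it, where 0.382% of all rows rose by that rule. Fitted on these 2 groups alone no row was past the threshold, and with arrays centred on their medians H2ac4 alone was.

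In differentiated cells 2 rows rose with sh-PIP4K2B and none fell, 4.26% of the members, where 0.495% of all rows rose and 0.278% fell. H2ac4 had 9.14, 9.33 and 9.15 with sh-PIP4K2B, against 8.41, 8.47 and 8.97 with shX, again with no overlap (0.59 ± 0.12, adjusted p = 0.025). H3c15 had 7.62, 7.83 and 8.02 with sh-PIP4K2B, against 7.01, 6.64 and 7.33 with shX (0.83 ± 0.18, adjusted p = 0.0316). The shX arrays of both rows were spread widely, and the row of H3c15 is near the median brightness of the array. Both calls were lost without sh-PIP4K2B array 2 or 3 or shX array 1 or 2, with array medians as a covariate (H3c15 then at 0.49, adjusted p = 0.345), and in a fit on these 2 groups alone, and the count of calls was then 0.

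The direction of the other histone rows in differentiated cells depended on the scaling. As deposited, the median was 0.03, against -0.02 for all rows, and 29 rows had positive and 18 negative differences. With arrays centred the median was 0.13, against 0.08 for all rows, and 42 rows were positive and 5 negative. The H3 shared rows lay between -0.02 and -0.00 and the H4 shared rows between 0.03 and 0.05, where the same rows after etoposide had differed by 0.13 to 0.31. The 9 H2B rows were all positive (0.02 to 0.43). Of the 8 H1 rows 5 were negative, among them H1f1 (-0.21 ± 0.08, adjusted p = 0.144), H1f8 (-0.34) and H1f7 (-0.25), and H1f3 (0.41) and H1f2 (0.32) were positive. H2ac15 (0.07) and H2bc9 (0.09), which had risen after etoposide, were close to no difference here.

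**Figure D3:**
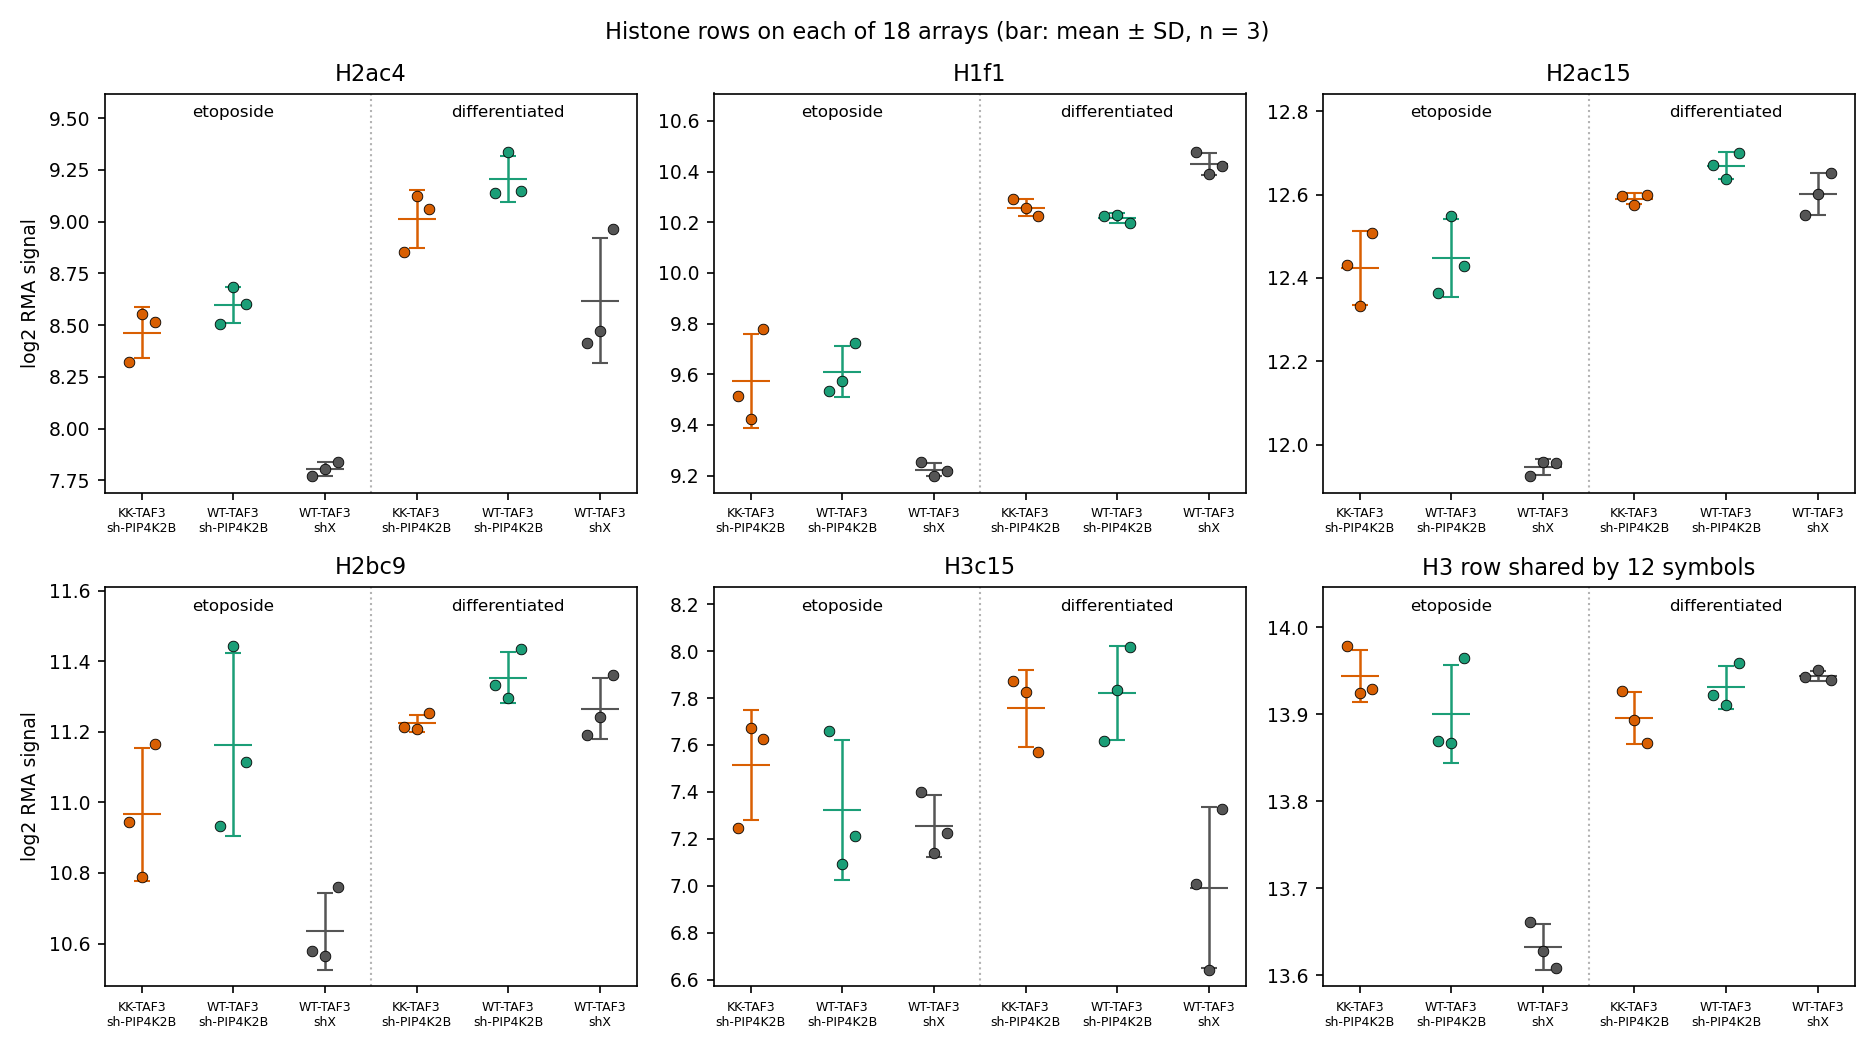
Log2 RMA signal of 6 histone rows on each of the 18 arrays, with the mean and SD of the 3 arrays of a group; etoposide is on the left of each panel and differentiation on the right. In each panel but that of H3c15 the 3 etoposide-treated WT-TAF3 shX arrays lie below the other 15, and in H3c15 the lowest array belongs to differentiated WT-TAF3 shX cells (6.64).

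Whether the effect of depletion differed between treatments was tested as an interaction. H1f1 was the only row past the threshold (0.60 ± 0.11, adjusted p = 0.0207), 1 of 47 or 2.13%, against 0.194% of all rows in that direction and 0.577% in the other. With sh-PIP4K2B its signal was 0.39 higher after etoposide and 0.21 lower after differentiation. The call was lost with arrays centred on their medians (adjusted p = 0.0513), with the array median as a covariate (adjusted p = 0.293), and in 6 of 12 fits that left out an array (differentiated shX array 1 or 2, differentiated sh-PIP4K2B array 2 or 3, shX array 2 or sh-PIP4K2B array 3 after etoposide), where the count was 0. Without sh-PIP4K2B array 1 after etoposide 5 rows were past the threshold, 3 higher and 2 lower. The share of all rows past it in that fit is not given here, so this count has no background. H2ac15 had a difference of 0.43 ± 0.09 between the 2 effects (adjusted p = 0.0302), under the fold limit. H2ac4, which rose in both treatments, had 0.20 with a 95% interval of -0.17 to 0.57. H3c15 ran the other way (-0.76 ± 0.26, adjusted p = 0.109). The median over the members was 0.24, against 0.02 over all rows. Centring the arrays moved the median of all rows to -0.12 and that of the members to 0.10. On that scale 1 row was past the threshold, in the negative direction, without a share of all rows to set beside it.

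KK-TAF3 was compared with WT-TAF3, both with sh-PIP4K2B, on the same WT-TAF3 sh-PIP4K2B arrays that entered the depletion comparisons. No histone row was past the threshold in limma in either treatment, where 0.208% of all rows rose and 0.0422% fell after etoposide, and 0.2% rose and 0.138% fell after differentiation. At an unadjusted p below 0.05 with 1.4-fold there was again none, against 0.7% of all rows higher and 0.228% lower after etoposide and 0.759% higher and 0.596% lower after differentiation. Member differences ranged from -0.30 (H1f6) to 0.28 (H1f2) after etoposide and from -0.24 (H2bc1) to 0.29 (H3c7) after differentiation. For H2ac4, which had 8.32, 8.55 and 8.51 in KK-TAF3 and 8.51, 8.68 and 8.60 in WT-TAF3 cells after etoposide, the difference was -0.13 with a 95% interval of -0.40 to 0.13. After differentiation it was -0.19 (-0.46 to 0.07), from 8.85, 9.12 and 9.06 in KK-TAF3 and 9.14, 9.33 and 9.15 in WT-TAF3 cells. The lower bounds of both intervals leave room for a lower level of H2ac4 in KK-TAF3 cells. The brightest H3 shared row differed by 0.04 (-0.06 to 0.15) after etoposide and by -0.04 (-0.14 to 0.07) after differentiation. The H3 shared rows lie at percentiles 99.4 to 99.7 of all rows, and whether differences are compressed at such signals was not tested.

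After differentiation the signs leaned one way all the same. In 38 of 47 rows KK-TAF3 was lower, with a median of -0.07 against 0.01 over all rows, and in 19 rows all 3 KK-TAF3 arrays lay below all 3 WT-TAF3 arrays, against 7.8% of all rows. All 15 shared rows, which are not independent readings, were among the 38, and the 5 H4 shared rows were also among the 19. Of the 32 rows with 1 or 2 symbols KK-TAF3 was lower in 23. In 14 of these all KK-TAF3 arrays lay below all WT-TAF3 arrays. All 9 H2B rows were among the 38. After etoposide 29 rows were positive and 18 negative, with a median of 0.02, and groups did not overlap in 1 row in each direction (5.64% of all rows higher, 3.83% lower). Of the rows with 1 or 2 symbols 14 were positive and 18 negative. The interaction of KK-TAF3 with treatment had no histone row past the threshold, against 0.045% of all rows higher and 0% lower. At an unadjusted p it had none either, against 0.886% higher and 0.593% lower.

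**Figure D4:**
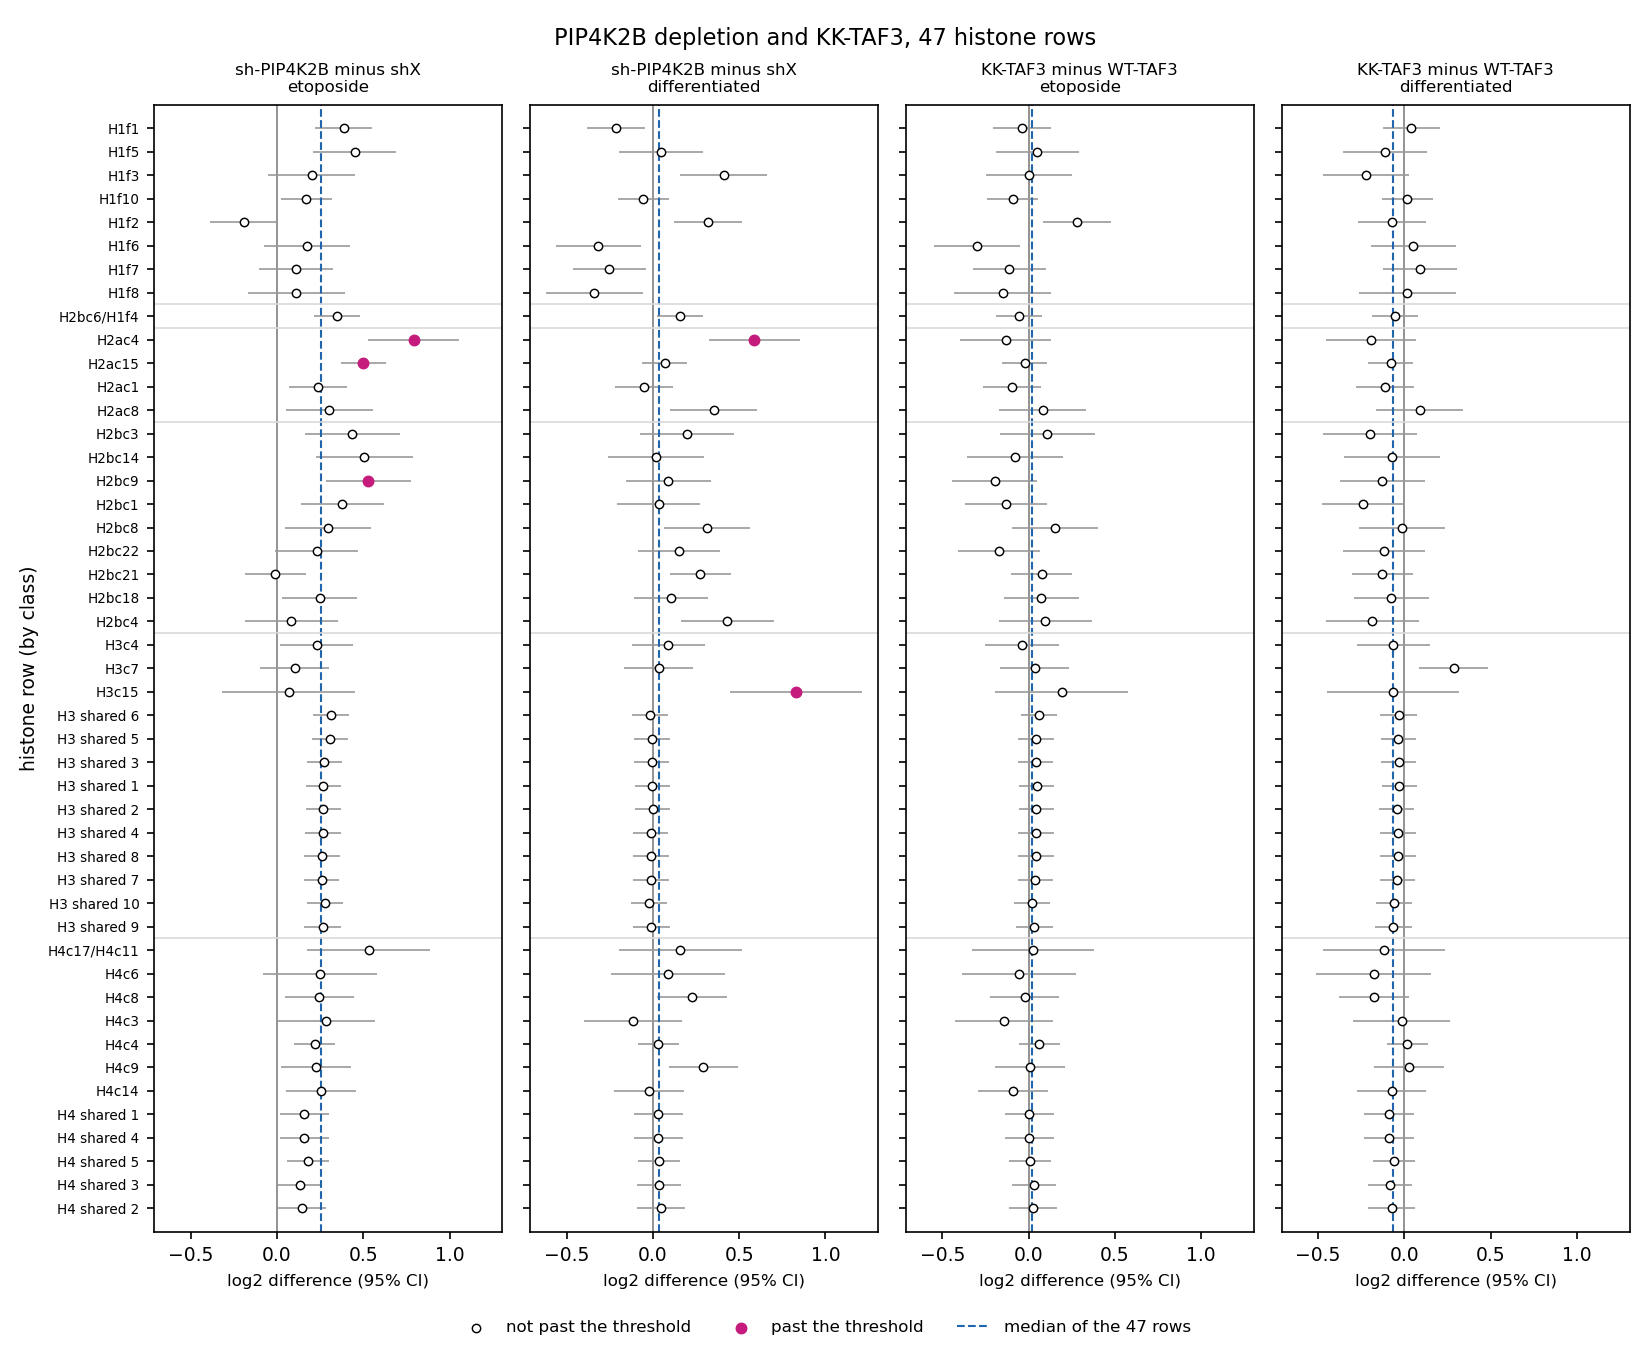
Log2 differences of the 47 histone rows with 95% confidence intervals for PIP4K2B depletion (sh-PIP4K2B minus shX, WT-TAF3) and for KK-TAF3 minus WT-TAF3 (both sh-PIP4K2B), after etoposide and after differentiation. Filled points are past the threshold, and the dashed median of the 47 rows is 0.26 for depletion after etoposide, 0.03 for depletion after differentiation, and 0.02 and -0.07 for KK-TAF3.

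Genes that make histone mRNA or handle histone proteins were read as lists beside the shares of all rows. Of 32 measured genes of histone mRNA transcription, processing and decay, none was past the threshold between etoposide and differentiation in WT-TAF3 shX cells. There 3.78% of all rows rose and 2.06% fell, so none of 32 is near those shares. The median difference of the list was 0.05. Slbp, the stem-loop binding protein, differed by 0.12 ± 0.11 and Npat, the coactivator of histone transcription, by -0.18 ± 0.11. Lsm10 (0.31 ± 0.09) and Lsm11 (-0.24 ± 0.07), subunits of the U7 particle that cuts histone pre-mRNA, passed the adjusted p in opposite directions and not the fold limit. In this list Lsm4, a subunit of the Lsm ring of mRNA decay, was the 1 gene to rise with etoposide in KK-TAF3 (0.62 ± 0.08) and in WT-TAF3 (0.52 ± 0.08) sh-PIP4K2B cells. In those lines 3.1% and 3.21% of all rows rose. No gene of the list was past the threshold for depletion or for KK-TAF3, where at most 0.577% of all rows passed in either direction.

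Of 10 measured replication-independent histones, only Macroh2a2, a macroH2A variant, was past both the adjusted p and the fold limit. It rose with etoposide by 0.49 ± 0.11 in WT-TAF3 sh-PIP4K2B and by 0.79 ± 0.11 in WT-TAF3 shX cells, where the members' median was negative. In those lines 3.21% and 3.78% of all rows rose. H2az1, the H2A.Z variant, differed by 0.09 ± 0.08 in WT-TAF3 shX cells and H2ax by -0.17 ± 0.07. In KK-TAF3 sh-PIP4K2B cells H2az1 was higher with etoposide by 0.39 ± 0.08 (adjusted p = 0.00232), short of the fold limit. Cenpa, the H3 variant of centromeres, stayed short of 1.4-fold throughout. It had differences of the same sign as the members' medians except with etoposide in KK-TAF3 sh-PIP4K2B cells, at 0.16 ± 0.09 against -0.15. It differed by -0.45 ± 0.09 between etoposide and differentiation in WT-TAF3 shX cells (adjusted p = 0.00371) and by 0.44 ± 0.09 with PIP4K2B depletion after etoposide (adjusted p = 0.0305). H2ax differed by 0.32 ± 0.07 in the depletion comparison (adjusted p = 0.0479), also short of the fold limit. Of 27 histone chaperones, Asf1b, an H3-H4 chaperone of proliferating cells, rose with PIP4K2B depletion after etoposide (0.63 ± 0.07, adjusted p = 0.000186). There 0.174% of all rows rose. Atrx fell with etoposide in KK-TAF3 and WT-TAF3 sh-PIP4K2B cells (-0.49 and -0.75), Anp32e (-0.61) and Spty2d1 (-0.57) fell in WT-TAF3 sh-PIP4K2B cells, and Dnajc9 rose (0.54) in KK-TAF3 sh-PIP4K2B cells. Thus 3 of 27 fell in WT-TAF3 sh-PIP4K2B cells, against 5.16% of all rows. In KK-TAF3 sh-PIP4K2B cells 1 fell and 1 rose, against 3.82% and 3.1% of all rows.

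Genes of S phase moved in part alongside the histone rows, and their part in the histone result was not tested. With PIP4K2B depletion after etoposide 3 of 49 measured genes rose and none fell: Ccna2, the S-phase cyclin (0.59 ± 0.06), Cdt1, a licensing factor (0.55 ± 0.08), and Mcm5, a helicase subunit (0.51 ± 0.06). There 0.174% of all rows rose and 0.371% fell. The S-phase list had a median difference of 0.24, close to the 0.26 of the histone rows. The summed signal of the 49 genes, on the log2 scale, was 15.64 to 15.80 in WT-TAF3 sh-PIP4K2B cells and 15.44 to 15.55 in WT-TAF3 shX cells. In differentiated cells E2f2 alone rose (0.49 ± 0.07), the list's median was 0.15, where that of the histone rows was 0.03, and the summed signal was 15.71 to 15.79 in WT-TAF3 sh-PIP4K2B cells and 15.56 to 15.62 in WT-TAF3 shX cells. Between etoposide and differentiation in WT-TAF3 shX cells Ccna2 (-0.76 ± 0.06) and Pola1 (-0.58 ± 0.10) fell, Pole2 (0.61 ± 0.12) and E2f2 (0.53 ± 0.07) rose, and the median was -0.04, against -0.34 for the histone rows. Here 2.06% of all rows fell and 3.78% rose. The summed signal was lower after etoposide, 15.44 to 15.55, against 15.56 to 15.62 after differentiation. In WT-TAF3 sh-PIP4K2B cells Cdt1 (0.74 ± 0.08) and Ccne1 (0.62 ± 0.09), the cyclin of S-phase entry, rose with etoposide, Pola1 fell (-0.84 ± 0.10) and the list's median was 0.04. In that line 3.21% of all rows rose and 5.16% fell. Cdt1 was also past the threshold in the interaction of depletion with treatment (0.59 ± 0.11, adjusted p = 0.0237). In KK-TAF3 sh-PIP4K2B cells 5 of 49 S-phase genes rose with etoposide and none fell, while the histone median was -0.15. Of all rows 3.1% rose and 3.82% fell in that line. Its summed S-phase signal was higher after etoposide, 15.78 to 15.91, against 15.69 to 15.72 after differentiation. In WT-TAF3 sh-PIP4K2B cells the sums of the 2 treatments overlapped. Of the 8 macrophage markers only Cd68, a lysosomal protein, rose with etoposide, in KK-TAF3 sh-PIP4K2B (0.60) and WT-TAF3 shX cells (0.52). The median over the 8 markers was 0.05 in KK-TAF3 sh-PIP4K2B and 0.002 in WT-TAF3 shX cells. Cd68 also enters the sum that follows. The summed signal of all 8 macrophage markers was 10.21 to 10.28 in KK-TAF3 sh-PIP4K2B cells after etoposide, against 10.01 to 10.04 after differentiation, and 10.06 to 10.15 against 9.86 to 9.88 in WT-TAF3 shX cells. Their part in the histone result was not tested.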

How the data were processed

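RNA of 18 C2C12 cultures was measured on Affymetrix whole-transcript arrays. The deposited values are log2 signals that the authors made with RMA in Affymetrix Expression Console (versions not given in the sources used here), 1 row per transcript cluster. RMA subtracts background and quantile-normalizes the probe values, so that a shift shared by most probes is lost; medians over the row values still lay between 7.25 and 7.46. The number of arrays limits the precision. Gene symbols came from the platform annotation: of 35556 rows, 21789 had 1 symbol, 1621 several, and 12146 were not listed. The row identifiers belong to another array generation than the one the study's methods name.

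One model of 6 group means was fitted to all rows with limma 3.58.1 in R 4.3.3 (lmFit and eBayes, 12 residual and 2.90 prior degrees of freedom), with Benjamini-Hochberg adjustment over all rows and none over the histone rows alone. A row passed at an adjusted p under 0.05 and above 1.4-fold. The study's methods give a limit on p and this fold limit and name neither a test nor an adjustment, so the adjustment was added here. Intervals are 95%. The fit was tested on simulated data. Values were given for H2ac4, the brightest row of each class, up to 3 passing rows per class between etoposide and differentiation in WT-TAF3 shX cells, rows passing in a depletion comparison or an interaction, and the H1 genes outside the clusters; other members named were chosen after their values were seen. Members and lists were chosen with earlier results of these data known. Whether replicates came from separate days is not given in the sources used here. The labels number the replicates and do not say that same-numbered arrays were paired. Deviations of same-numbered arrays correlated above 0.1 in all 3 pairs only for depletion after etoposide (r = 0.292, 0.258 and 0.264). Over all comparisons r went down to -0.354, and these modest values do not settle whether samples were paired. RefSeq promoters were searched with Python 3.11.15.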

Additional observations from a re-analysis of the deposited data

Results flagged for a closer look

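The effect of PIP4K2B depletion on H1f1 differed between treatments by 0.598 on the log2 scale (interaction in limma, adjusted p = 0.0207, 3 arrays a group). H1f1 was 0.39 higher with sh-PIP4K2B than with shX after etoposide and 0.21 lower after differentiation, and the groups did not overlap in either. The adjusted p lay between 0.00707 and 0.293 over the alternatives.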

How the results depend on the processing

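No named row changed direction under the alternatives run; of the member medians, that of KK-TAF3 after etoposide, 0.02, was -0.06 without KK-TAF3 sh-PIP4K2B etoposide array 3 and -0.03 with 1 row per symbol. Of the values for named rows and member medians, 414 stayed on their side of the threshold or, for medians, within the spread between replicates, those 2 medians included. Another 45 kept the direction and lost the threshold, and 4 medians moved by more than the spread. These were the member medians of the interaction, 0.10 centred and 0.11 with array medians as a covariate, of depletion in differentiated cells, 0.13 centred, and of etoposide in WT-TAF3 sh-PIP4K2B cells, -0.28 centred.

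Without the fold limit the counts for etoposide against differentiation were 9 in KK-TAF3 sh-PIP4K2B cells (17.4% of all rows), 18 in WT-TAF3 sh-PIP4K2B cells (24.1%) and 33 in WT-TAF3 shX cells (15.1%). By the same rule 15 rows passed for depletion after etoposide (1.47% of all rows) and 4 for its interaction with treatment (0.967%). With array medians as a covariate they were 0 for depletion in differentiated cells, 1 after etoposide and 0 for the interaction. Fitted on the compared groups only, both depletion comparisons gave 0. Centring arrays on their medians gave 1 for depletion after etoposide. Unadjusted p gave 5 for depletion after etoposide and 5 for the interaction, and testing only rows with a symbol, or only rows above the median signal, gave 2 for the interaction. The causes were not tested. Apart from the counts without the fold limit, no share of all rows is given with the counts of this paragraph. Leaving out 1 array gave 8 to 11 rows in WT-TAF3 shX, 5 to 7 in WT-TAF3 sh-PIP4K2B and 1 to 2 in KK-TAF3 sh-PIP4K2B cells, 0 to 2 for depletion in differentiated cells, 1 to 5 after etoposide, 0 to 5 for its interaction, and 0 in all KK-TAF3 comparisons. The replicate block gave 9, 6 and 2 rows for the 3 treatment comparisons, 2 and 3 for depletion, 0 for KK-TAF3 and 1 for the depletion interaction, as without it, and changed no other call.

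Centring moved the median of all rows by over 0.1 in WT-TAF3 sh-PIP4K2B cells between treatments (-0.06 centred, 0.05 as deposited) and in the interaction. The share of higher rows among all rows past the threshold was 64% as deposited, 87.4% centred and 41.1% with the covariate for depletion in differentiated cells, and 32%, 19.5% and 46.3% after etoposide. It was 25.2% and 5.86% centred for the interaction, 38.4% and 17.1% for etoposide in WT-TAF3 sh-PIP4K2B cells, and 44.8% and 31.5% in KK-TAF3 sh-PIP4K2B cells. Precision is limited by 3 arrays a group.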
